A study of Mus musculus with 4 samples.

Results

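The genes described here act in the formation of meiotic crossovers, and chromatin accessibility at them was compared by ATAC-seq between female germ cells of control and Snf5 CKO mouse embryos. The set was chosen by gene name and holds 9 of the 21887 protein-coding genes placed on the mm10 genome, namely Msh4, Msh5, Hfm1, Rnf212, Rnf212b, Ccnb1ip1, Cntd1, Mlh3 and Exo1. ATAC-seq uses a transposase that inserts sequencing adapters into open DNA, and a peak is a stretch with more insertions than its surroundings. All embryos were female C57BL/6 at embryonic day 15.5, and germ cells were sorted in both groups by the green fluorescence of an Oct4-EGFP reporter. The control group (Control 1 and Control 2) and the conditional knockout group (Snf5 CKO 1 and Snf5 CKO 2) had 2 libraries each. Snf5, the product of Smarcb1, is part of the core of SWI/SNF complexes, which move nucleosomes. Sources used here do not give the alleles behind the words control and CKO, the Cre line or the number of embryos pooled.

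Crossovers are reciprocal exchanges between homologous chromosomes that arise by repair of programmed double-strand breaks, and in female mice they form in the fetal ovary during meiotic prophase. MSH4 and MSH5 pair into a complex that holds joined recombination intermediates, HFM1 is the counterpart of the yeast helicase MER3, and the RING-finger proteins RNF212, RNF212B and CCNB1IP1 (HEI10) help to set which intermediates become crossovers. CNTD1 is a cyclin-like protein of late crossover maturation, MLH3 is part of an endonuclease that resolves the intermediates, and EXO1 is an exonuclease that works with it.

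The 4 peak lists held 28625 to 45422 peaks over 16.9 to 27.4 Mb, the shortest list being that of Snf5 CKO 2. Read depth is unknown, so an absent peak does not show that a gene was closed. Whether libraries of 1 group stem from different embryos is not stated in the labels, and their spread may be technical. With 2 libraries against 2, a two-sided exact permutation test cannot give a p below 0.333, so no single value here can pass 0.05, and groups are described by whether their values overlap. Smarcb1 had peaks of 929 bp in Control 1 and 1139 bp in Control 2 at its gene ends and none in either Snf5 CKO library. All 6 germ cell markers examined had a peak in all 4 libraries, as did 5 of 6 markers of ovarian supporting cells, 1 of 4 of ovarian stroma and 1 of 6 of endothelium and blood. The stroma genes Nr2f2 and Tcf21 had no peak in Snf5 CKO 2. Of the endothelium and blood markers, Pecam1 had a peak in Control 1 alone and Hba-a1 in Control 2 alone. Cd68, a macrophage gene, had one in the Snf5 CKO libraries alone. The part of other cell types in the values below was not tested.

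Most crossover genes kept a peak near their annotated start or end in the knockout, which need not cover the start itself. A gene counted as open where any base of a peak fell within 1 kb of its annotated start or end, as kept when open in all 4 libraries, and as lost when open in both controls and neither Snf5 CKO library. By this rule 7 of the 9 genes were kept, beside 55.0% of all protein-coding genes, and none was lost or gained. Ccnb1ip1 was open in 3 libraries and Rnf212b in none, beside 33.6% of all genes with no gene-end peak in any library. Of the 13421 protein-coding genes open in both controls, 89.6% were kept and 4.84% lost, so 7 kept of the 8 crossover genes open in both controls is close to the background. Of the 7674 genes with no gene-end peak in either control, 0.534% were gained, with a peak in both Snf5 CKO libraries.

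Rnf212b was missed by the gene ends because its RefSeq start lies inside the annotated gene. The gene spans positions 54783341 to 54854110 of chromosome 14 on the forward strand, while the start in the RefSeq promoter table is at 54814150. All 4 libraries had a peak over that base. With windows of 1 kb around RefSeq starts, a choice made after the data had been seen, 7 of the 8 genes with a tabulated start had a peak in all 4 libraries, Rnf212b included and Ccnb1ip1 again the exception. Exo1 has no entry in that table. Of all 17492 genes with a tabulated start, 57.6% had peaks there in all 4 libraries.

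Peaks at the crossover genes were shorter in the knockout, and the amount differed between the genes. Peak length is the summed length of all peaks that touch the gene-end windows, and paired values are given with replicate 1 of a group first. In 6 of the 7 kept genes both Snf5 CKO values lay below both control values, beside 77.3% of the 12030 kept protein-coding genes. No crossover gene had longer peaks in both Snf5 CKO libraries, beside 1.27% of kept genes. The median log2 ratio of mean Snf5 CKO over mean control length was −0.60 over the 7 genes, against −0.41 over all kept genes. The ratios ran from −1.40 at Cntd1 to −0.28 at Exo1. Shorter peaks were thus shared with most open genes: the median length over all kept genes was 1171 and 1151 bp in Control 1 and Control 2 against 882.5 and 826 bp in the Snf5 CKO libraries. Whether the crossover genes differ as a group from other genes was not tested, nor was the part of read depth in the peak lengths. With peaks at RefSeq starts instead, 79.2% of 10079 genes had shorter peaks in both Snf5 CKO libraries.

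**Figure D1:**
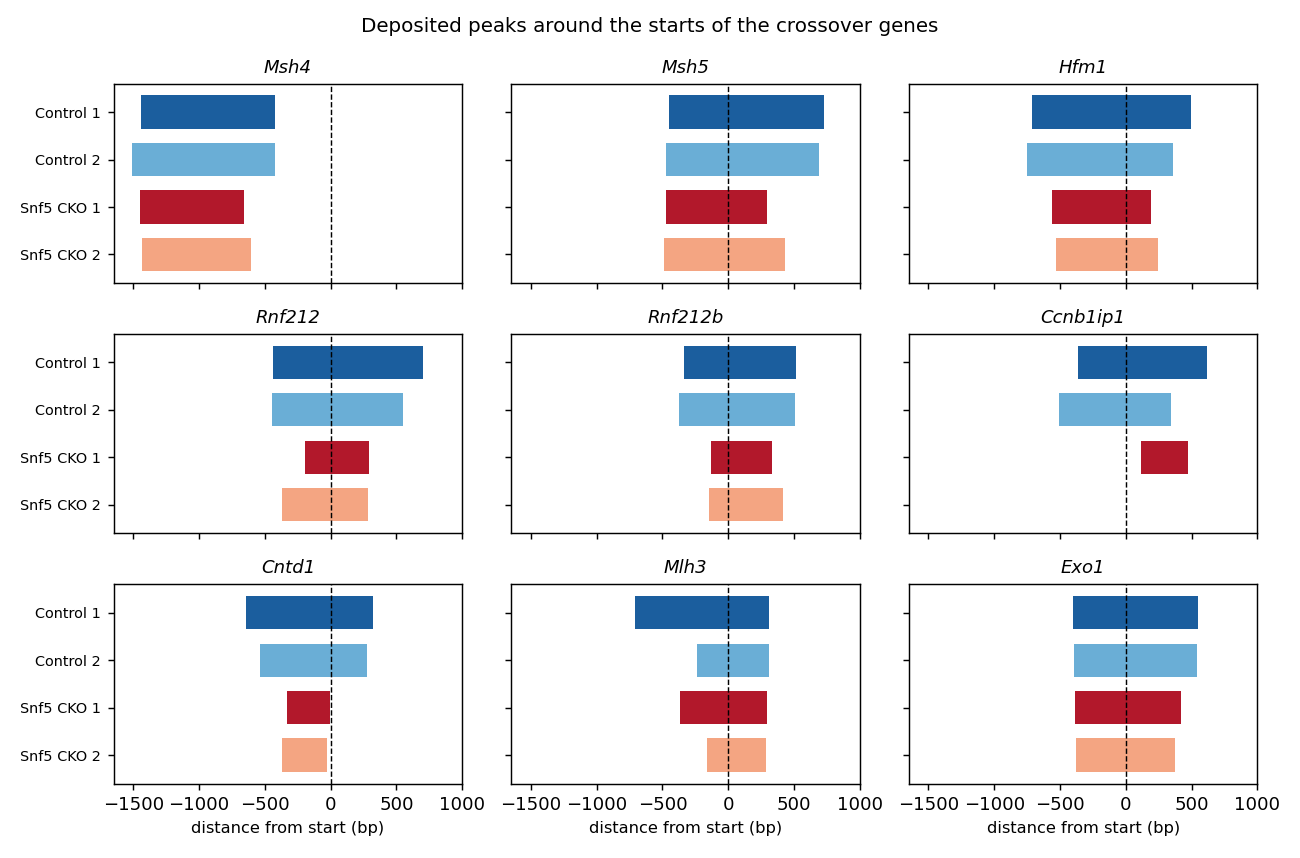
Position of the deposited peaks around the start of each crossover gene, with 1 row for each library and distance from the start in bp on the horizontal axis (negative is upstream). The dashed line is the RefSeq start, or for Exo1 the lower-coordinate gene end with the gene to the right. Snf5 CKO peaks stop short of the start at Cntd1, and at Ccnb1ip1 Snf5 CKO 2 has no peak.

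**Figure D2:**
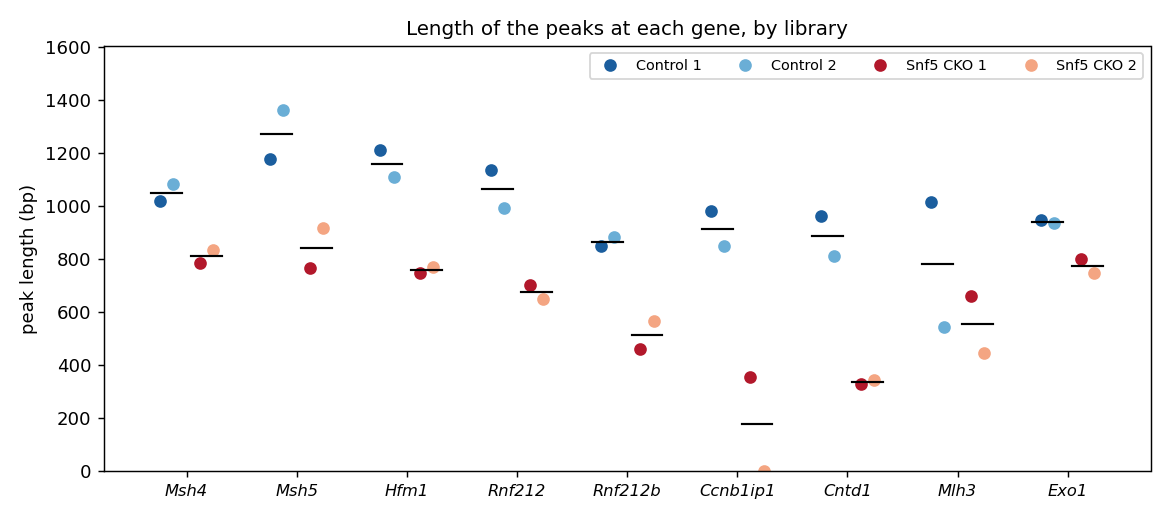
Peak length in bp at the gene ends of the 9 crossover genes in each library, with horizontal lines at the group means of 2 libraries. For Rnf212b the peaks at its RefSeq start are shown. Both Snf5 CKO values lie below both control values at every gene except Mlh3, and Ccnb1ip1 has a value of 0 in Snf5 CKO 2.

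Cntd1 had the largest shortening of the 7 kept genes. The gene (identifier 68107, chromosome 11, 101279203 to 101288701, forward strand) encodes a cyclin-like protein needed in mice for late crossover maturation. Its peak measured 962 and 811 bp in the controls and 328 and 342 bp in the Snf5 CKO libraries. The groups did not overlap, and the Snf5 CKO mean of 335 ± 9.90 bp (SD, n = 2) was 37.8% of the control mean of 887 ± 107 bp (SD, n = 2). Only 2.88% of kept genes had a lower log2 ratio than the −1.40 of Cntd1. The difference of the means was larger than the spread within either group.

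The Snf5 CKO peaks at Cntd1 no longer covered its start. Control peaks ran from 640 bp upstream to 321 bp downstream of the start in Control 1, and from 537 bp upstream to 273 bp downstream in Control 2. In Snf5 CKO 1 the peak ran from 333 bp upstream to a point 6 bp short of the start. In Snf5 CKO 2 it ran from 369 bp upstream to 28 bp short of it. Cntd1 lies head to head with Coa3, a gene of mitochondrial cytochrome oxidase assembly whose start is 255 bp away on the reverse strand, at 101278948. The Coa3 start was under a peak in all 4 libraries, so in the knockout the remaining peak covered the start of Coa3 and not that of Cntd1. A peak at this pair cannot be assigned to one of the genes.

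The promoter of Cntd1 (GRCm38.p6, chr11:101278953-101279252, forward strand) is shown because its sequence marks where the peaks ended. It is printed 5′ to 3′ from 250 bases before to 50 bases from the start onward, with capitals for the 223 bases that were under a peak in all 4 libraries. Both controls covered all 300 bases.
Cntd1: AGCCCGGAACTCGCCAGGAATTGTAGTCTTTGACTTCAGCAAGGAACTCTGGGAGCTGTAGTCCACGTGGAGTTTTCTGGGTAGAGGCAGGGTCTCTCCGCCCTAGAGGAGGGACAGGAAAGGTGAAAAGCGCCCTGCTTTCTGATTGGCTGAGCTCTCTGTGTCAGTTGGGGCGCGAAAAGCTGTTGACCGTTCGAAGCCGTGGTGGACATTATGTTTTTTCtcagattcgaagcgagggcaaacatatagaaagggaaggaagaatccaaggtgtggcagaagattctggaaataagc
The lower-case stretch at its 3′ end holds the start.

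Ccnb1ip1 was the only crossover gene that had a gene-end peak in some libraries and not in others. It encodes the RING-finger protein HEI10, which in mice is needed for crossovers and limits the number of sites that RNF212 marks. The gene (identifier 239083) lies at chromosome 14, 50789249 to 50795728, on the reverse strand. Its peak measured 981 bp in Control 1, 849 bp in Control 2 and 353 bp in Snf5 CKO 1. In Snf5 CKO 2 there was none. Both control values lay above the Snf5 CKO 1 value.

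The single Snf5 CKO peak at Ccnb1ip1 was weak and did not reach the start. Its upstream edge was at −116 bp, negative values lying inside the gene, and it ended 468 bp downstream, while the control peaks reached 367 and 506 bp upstream. Its −log10 q, the authors' measure of confidence corrected for multiple testing, was 1.19, and 5.42% of the peaks of Snf5 CKO 1 had a lower fold enrichment. The control peaks had a −log10 q of 4.32 and 5.55. When peaks under a −log10 q of 3 were left out, or all lists were trimmed to 28625 peaks, Ccnb1ip1 was lost in the knockout, beside 6.78% and 4.92% of genes open in both controls. The neighbouring gene Ttc5 kept a peak at its start in all 4 libraries, of 652 and 673 bp in the controls and 712 and 657 bp in the Snf5 CKO libraries.

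The promoter of Ccnb1ip1 (GRCm38.p6, chr14:50795679-50795978, reverse strand) is printed by the same convention. Both controls covered all 300 bases and neither Snf5 CKO library covered any of them, so there are no capitals.
Ccnb1ip1: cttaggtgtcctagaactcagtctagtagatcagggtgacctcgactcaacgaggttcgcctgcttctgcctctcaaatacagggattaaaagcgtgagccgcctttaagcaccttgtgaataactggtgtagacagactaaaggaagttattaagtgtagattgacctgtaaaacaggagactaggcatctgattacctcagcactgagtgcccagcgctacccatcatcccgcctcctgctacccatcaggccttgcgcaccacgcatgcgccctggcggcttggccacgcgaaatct
Cntd1 and Ccnb1ip1 were thus 2 of the 7 crossover genes whose start was under a peak in both controls, and their starts were under no peak in either Snf5 CKO library. Over all 9938 genes with a start covered in both controls, 4.66% showed this pattern. No test of the set was made, and the 2 genes are given as a description.

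The other genes for RING-finger proteins, Rnf212 and Rnf212b, also had shorter peaks in the knockout. Both proteins are needed for crossovers in mice, and RNF212 is a SUMO ligase-like protein that stabilises MSH4 and MSH5 at selected sites. Rnf212 (identifier 671564, chromosome 5, 108728105 to 108775067, reverse strand) had 1138 and 994 bp in Control 1 and Control 2. Its Snf5 CKO values, 702 and 649 bp, both lay below these, and the log2 ratio was −0.66.

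Part of the Snf5 CKO 1 value for Rnf212 did not come from the promoter. A separate peak of 214 bp lay beyond the lower-coordinate end, at the 3′ side of the gene, and was found in Snf5 CKO 1 alone. At the start itself the peaks measured 488 and 649 bp in the Snf5 CKO libraries, a mean of 569 ± 114 bp (SD, n = 2) against 1066 ± 102 bp (SD, n = 2) in controls. The log2 ratio at the start was −0.91, and 10.4% of genes with peaks at a tabulated start had a lower one. Both edges drew in: the downstream edge lay 702 and 550 bp from the start in controls and 289 and 280 bp in the Snf5 CKO libraries. The upstream edge lay at 435 and 443 bp in controls and at 198 and 368 bp in the Snf5 CKO libraries.

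Rnf212b (identifier 102632837) had peaks of 848 and 882 bp over its RefSeq start in Control 1 and Control 2. The Snf5 CKO peaks measured 460 and 568 bp. Both lay below both controls, with a log2 ratio of −0.75. Unlike Rnf212, it drew in more on the upstream side, from a mean of 355 ± 31.1 bp to 140 ± 14.8 bp (SD, n = 2 each), than on the downstream side, from 509 ± 7.07 bp to 374 ± 61.5 bp (SD, n = 2 each).

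The promoters of both genes are printed with the same meaning of capitals, since the lower-case part shows how much of the upstream side was outside the peak of at least 1 library. They lie at chr5:108774978-108775277 on the reverse strand and chr14:54813900-54814199 on the forward strand (GRCm38.p6).
Rnf212: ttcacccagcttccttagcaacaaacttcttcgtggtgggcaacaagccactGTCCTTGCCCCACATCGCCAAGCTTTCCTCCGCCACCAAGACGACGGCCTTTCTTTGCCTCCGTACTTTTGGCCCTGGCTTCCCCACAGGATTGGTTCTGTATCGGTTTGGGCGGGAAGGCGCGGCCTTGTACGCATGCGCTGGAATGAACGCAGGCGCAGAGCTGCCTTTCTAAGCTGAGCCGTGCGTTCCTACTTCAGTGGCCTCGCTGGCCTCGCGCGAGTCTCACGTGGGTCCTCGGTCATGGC
Rnf212b: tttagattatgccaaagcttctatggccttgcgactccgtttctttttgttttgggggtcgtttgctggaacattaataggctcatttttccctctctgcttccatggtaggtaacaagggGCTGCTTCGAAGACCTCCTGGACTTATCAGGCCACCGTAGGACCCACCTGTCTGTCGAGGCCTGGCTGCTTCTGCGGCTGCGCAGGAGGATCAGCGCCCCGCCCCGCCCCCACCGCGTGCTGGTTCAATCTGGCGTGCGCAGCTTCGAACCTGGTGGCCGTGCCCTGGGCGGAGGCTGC
In Rnf212 the 248 bases in capitals leave out the 5′ end, which was covered in Snf5 CKO 2 and not in Snf5 CKO 1. In Rnf212b 179 bases were shared by all 4 libraries, with 179 covered in Snf5 CKO 1 and 200 in Snf5 CKO 2.

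Msh5 and Msh4, whose products form 1 complex, both had shorter peaks that drew in on 1 side. Msh5 (identifier 17687, chromosome 17, 35028605 to 35046997, reverse strand) had 1180 and 1365 bp in the controls and 766 and 918 bp in the Snf5 CKO libraries. The Control 2 value includes a separate peak of 200 bp beyond the lower-coordinate end, and the start peak alone measured 1165 bp there. That separate peak also lies at ends of the genes Vwa7 and Sapcd1 and over the start of Gm52318, a long noncoding RNA gene. Neither the summed length nor the start peak showed an overlap of the groups. The log2 ratio was −0.60 for all gene-end peaks and −0.48 for the start peak.

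At Msh5 the downstream edge drew in and the upstream edge did not. The upstream edge lay 450 and 475 bp from the start in controls and 473 and 490 bp in the Snf5 CKO libraries, and the groups overlapped. The downstream edge lay at 729 and 689 bp in controls and at 292 and 427 bp in the Snf5 CKO libraries, a difference of means of −349.5 bp. The peak had a fold enrichment over local background of 4.78 and 4.41 in the control lists, where 77.8% and 68.1% of all peaks had a lower fold. Its fold was 7.41 and 6.44 in the Snf5 CKO lists, where 96.6% and 90.2% had a lower one. Fold enrichment describes a peak within its own list, and since the lists differ in length no change is read from these values.

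The Msh5 promoter (GRCm38.p6, chr17:35046573-35046872, reverse strand) is printed for contrast with that of Cntd1, because all of its 300 bases stayed under a peak in the 4 libraries.
Msh5: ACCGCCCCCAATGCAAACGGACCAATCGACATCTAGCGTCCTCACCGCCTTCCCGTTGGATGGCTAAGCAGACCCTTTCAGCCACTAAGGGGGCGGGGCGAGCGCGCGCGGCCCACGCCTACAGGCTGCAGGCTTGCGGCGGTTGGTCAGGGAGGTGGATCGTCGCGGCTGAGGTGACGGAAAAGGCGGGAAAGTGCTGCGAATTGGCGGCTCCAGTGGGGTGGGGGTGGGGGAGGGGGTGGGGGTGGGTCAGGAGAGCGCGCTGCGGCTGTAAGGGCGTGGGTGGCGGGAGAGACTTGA
Its peak shortened beyond the printed stretch, inside the gene.

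Msh4 (identifier 55993, chromosome 3, 153857141 to 153906138, reverse strand) had peaks of 1018 and 1082 bp in the controls, above the 787 and 835 bp of the Snf5 CKO libraries. The log2 ratio of −0.37 was near the median of all kept genes. These peaks did not cover the tabulated start at 153904891 in any library but lay around the higher-coordinate end of the gene. On the reverse strand this end is the upstream one, and the tabulated start lies inside the annotated gene. Counted downstream from that start, the gene-side edge was at −427 bp in both controls and at −660 and −603 bp in the Snf5 CKO libraries. The lower-coordinate end of Rabggtb, a geranylgeranyl transferase gene on the reverse strand, shares this peak, which cannot be assigned to 1 gene. That end is the 3′ end of Rabggtb, whose start at 153912966 was under a separate peak in all 4 libraries. The outer edge lay 197 and 261 bp beyond the gene end in controls and 199 and 190 bp beyond it in the Snf5 CKO libraries. As at Msh5, the groups separated at the gene-side edge and overlapped at the outer one.

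Hfm1 (identifier 330149, chromosome 5, 106840193 to 106926712, reverse strand), the helicase gene, had 1211 and 1109 bp in the controls and 748 and 772 bp in the Snf5 CKO libraries. The groups did not overlap, with means of 1160 ± 72.1 bp and 760 ± 17.0 bp (SD, n = 2 each) and a log2 ratio of −0.61. Both edges drew in by similar amounts, the upstream edge by a mean of −191 bp and the downstream edge by −209 bp. Hfm1 had the most GC-rich promoter of the 8 tabulated ones, at 75.3%, and its 300 bases stayed under a peak in all libraries.

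Of the genes of the resolution step, Mlh3 showed overlapping groups and Exo1 a small difference with the groups apart. Mlh3 (identifier 217716, chromosome 12, 85234466 to 85270647, reverse strand) had 1016 and 545 bp in the controls and 660 and 447 bp in the Snf5 CKO libraries. The groups overlapped, since Control 2 lay below Snf5 CKO 1, and the mean difference was smaller than the control SD of 333 bp. Its log2 ratio of −0.50 became 0.022 without Control 1. The spread came from the upstream edge, at 708, 236, 364 and 158 bp in the 4 libraries in the same order. The downstream edge lay at 307 and 308 bp in controls and at 295 and 288 bp in the Snf5 CKO libraries.

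Exo1 (identifier 26909, chromosome 1, 175880768 to 175911396) had the smallest shortening and the steadiest control values. Its peak measured 946 and 935 bp in the controls and 801 and 748 bp in the Snf5 CKO libraries. The Snf5 CKO mean was 82.3% of the control mean. The outer edge lay 401 and 395 bp outside the lower-coordinate gene end in controls and 385 and 376 bp in the Snf5 CKO libraries. Inside the gene the peak reached 544 and 539 bp in controls and 415 and 371 bp in the Snf5 CKO libraries. The start of Gm36360, a long noncoding RNA gene on the reverse strand, lies 13 bp from that end and was under the same peak in all 4 libraries. Exo1 also ranked between 1 and 3 by fold among the crossover genes in each list, with 6.74, 6.03, 7.37 and 6.98 in Control 1, Control 2, Snf5 CKO 1 and Snf5 CKO 2.

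**Figure D3:**
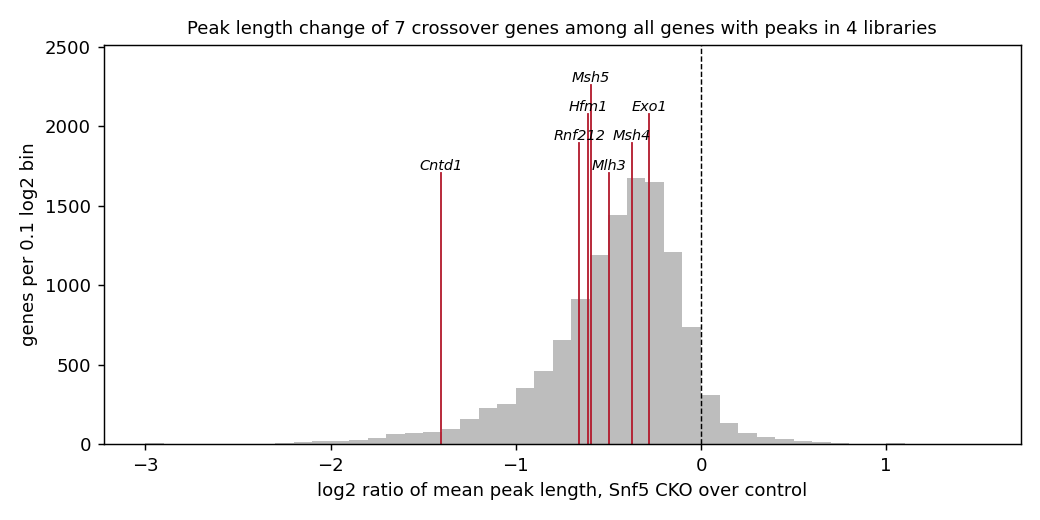
Histogram of the log2 ratio of mean peak length, Snf5 CKO over control, for the 12030 genes with gene-end peaks in all 4 libraries, in bins of 0.1 (ratios beyond the axis are in the outermost bins). Red lines mark the 7 kept crossover genes, from Cntd1 at −1.40 to Exo1 at −0.28, and the dashed line marks equal length.

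The order of the ratios, from the strongest shortening, was Cntd1, Rnf212, Hfm1, Msh5, Mlh3, Msh4 and Exo1. Cntd1 stood apart from its neighbour Rnf212, since its range without each library in turn was −1.52 to −1.28 and that of Rnf212 was −0.75 to −0.56. The ranges of Rnf212, Hfm1 (−0.67 to −0.55) and Msh5 (−0.73 to −0.47) overlapped, so these neighbours were not separated. Msh4 (−0.42 to −0.33) and Exo1 (−0.33 to −0.23) overlapped at their edges, and the range of Mlh3, −0.88 to 0.022, took in all of these genes. The order also depended on the measure: with only the bases inside the windows counted, the log2 ratio of Hfm1 was −0.34, behind Mlh3 at −0.50, Msh5 at −0.43 and Msh4 at −0.37, while Cntd1 at −1.40 and Rnf212 at −0.82 still came first.

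The side on which the peaks shortened was examined at the 6 crossover genes whose start was under a peak in both controls and that had a peak within 1 kb of it in both Snf5 CKO libraries. The downstream edge, on the transcribed side, lay nearer the start in both Snf5 CKO libraries than in both controls at 6 of 6, beside 71.9% of 9319 genes. The upstream edge did so at 4 of 6, beside 56.3%, and the exceptions were Msh5 and Mlh3. The median difference was −261.5 bp downstream and −201 bp upstream, against −159.5 and −91 bp over all genes. All genes thus also showed the larger difference downstream. The downstream differences of the 6 genes ran from −16 bp at Mlh3 to −349.5 bp at Msh5. The downstream median of the 6 genes was −202.8 bp without Control 1 and −308 bp without Control 2.

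**Figure D4:**
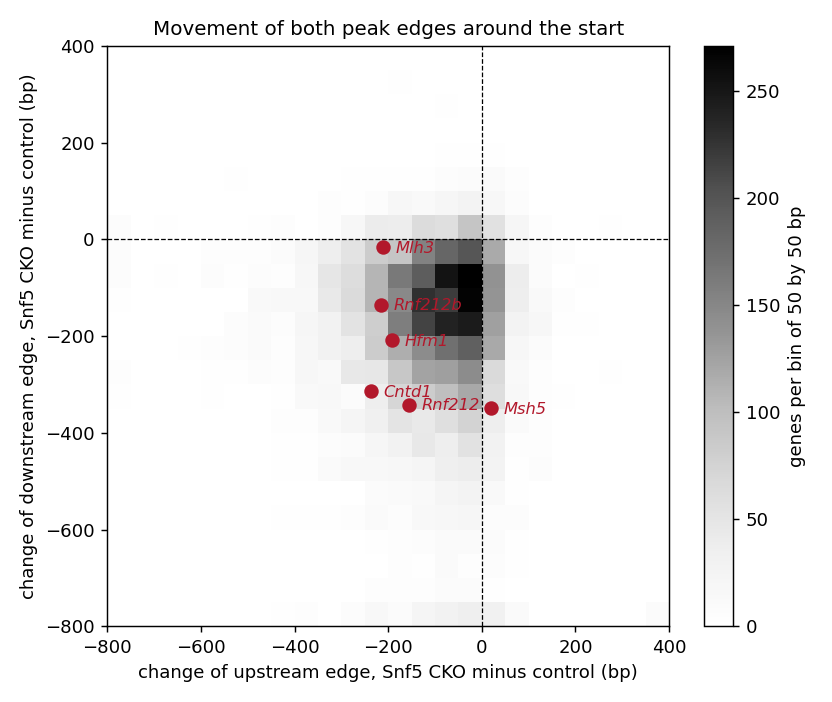
Difference of the upstream edge (horizontal axis) and of the downstream edge (vertical axis) of the peak at the start, Snf5 CKO minus control in bp, where negative values mean an edge nearer the start. Grey squares count genes among 9319 in bins of 50 bp, with values beyond the axes in the outermost bins, and red points are 6 crossover genes. Msh5 lies at 19 bp upstream and −349.5 bp downstream, and Mlh3 at −211 and −16 bp.

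Within each peak list the crossover genes could be ranked by fold enrichment at the start or gene end. Cntd1 had rank 9 in Control 1 with 4.16, rank 5 in Control 2 with 5.05, and rank 2 in both Snf5 CKO lists with 7.40 and 6.89. Rnf212 had ranks 2 and 3 in the control lists with 6.28 and 5.85, and ranks 6 and 8 in the Snf5 CKO lists with 4.14 and 3.99, the latter being the lowest of the 8 genes with a peak. Rnf212b kept rank 4 or 5 in every list, with folds of 5.36 and 5.10 in controls and 4.25 and 4.74 in the Snf5 CKO lists. Among the crossover genes in the Snf5 CKO lists, Cntd1 and Msh5 thus had ranks 1 to 3 and Rnf212 ranks 6 and 8, though all had shorter peaks than in controls. These are orders within lists, and no change of fold between lists was tested.

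The wider surroundings, the gene plus 10 kb on either side, also held peaks away from the gene's own start and end. The peaks of the 4 libraries merged into 28 regions around the 9 genes, of which 11 touched the gene's own start or end and 7 the start or end of another protein-coding gene. Another 7 lay inside a crossover gene and 3 outside genes' ends. Of the 28 regions, 12 had a peak in all 4 libraries and 9 in 1 library only. No region was found in the Snf5 CKO libraries alone in both replicates, and 2 were found in both controls alone. One of these lay inside Rnf212b and measured 290 bp in Control 1 and 200 bp in Control 2. The other lay near Msh5 at positions 35020583 to 35021025 of chromosome 17, with folds of 2.56 and 2.71. Such regions were not counted around all genes, so no background share stands beside these counts.

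Hfm1 had the most peaks inside the gene, all but 1 of them in single libraries. Of 5 merged regions inside Hfm1 away from its ends, 3 were found in Control 1 alone, 1 in Snf5 CKO 1 alone and 1 in Control 2 and Snf5 CKO 1. A further region beyond the higher-coordinate end, at 106931885 to 106932233 and upstream of the start, had a peak in Control 2, Snf5 CKO 1 and Snf5 CKO 2. Its folds in those lists were 4.38, 7.22 and 4.25, and Control 1 had no peak there. It was the only region outside a promoter that both Snf5 CKO libraries shared.

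**Figure D5:**
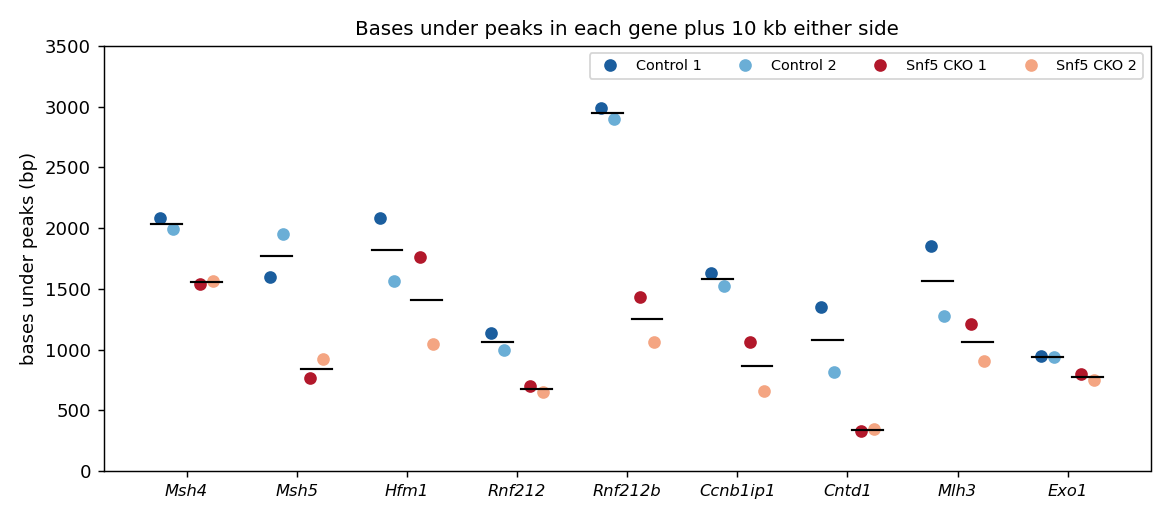
Bases under peaks in each crossover gene plus 10 kb on either side, in bp for each library, with lines at the group means of 2 libraries. Snf5 CKO values lie below both control values at 8 of the 9 genes, and the groups overlap at Hfm1.

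Bases under peaks in these surroundings were fewer in both Snf5 CKO libraries than in both controls at 8 of the 9 genes, beside 67.3% of the 15278 genes with covered bases in all 4 libraries. None of the 9 had more in both Snf5 CKO libraries, beside 3.14%. The median log2 ratio was −0.66 over the 9 genes and −0.45 over all. This measure includes the promoter peaks and so partly repeats their lengths. At Rnf212 and Exo1 it equals the gene-end peak length in every library. Rnf212b had 2992 and 2902 bp under peaks in Control 1 and Control 2 and 1436 and 1063 bp in the Snf5 CKO libraries. The groups were far apart, and the difference included a peak at the start of the amino acid transporter gene Slc7a8 that was 200 bp long in Snf5 CKO 1 and missing in Snf5 CKO 2. Hfm1 was the exception, with 2084 and 1562 bp in controls and 1762 and 1047 bp in the Snf5 CKO libraries. With 5 kb or 20 kb on either side the count was 7 of 9, and the share over all genes was not computed at these distances. Without Control 2 the median over the 9 genes was −0.81, and without Snf5 CKO 1 it was −0.80.

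Among 27 other genes of crossover formation, resolution and anti-crossover activity, 24 were matched in the gene table and Spo16, Redic1 and Firrm were not. Of the 24, 23 had gene-end peaks in all 4 libraries, beside 55.0% of all protein-coding genes. Shoc1, needed in mice for crossovers, had none in any. None was lost or gained. In 16 of the 23 (69.6%) both Snf5 CKO values lay below both controls, beside 77.3% of all kept genes. In 1 both lay above, beside 1.27% of all kept genes, and in 6 the groups overlapped. The count of 16 became 15 with peaks less than 500 bp apart joined and 18 with windows of 2 kb. The share over all genes was not computed for these 2 settings. The median log2 ratio of −0.38 was near the −0.41 of all kept genes, and the members of the list ran from −1.61 to 0.09.

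The genes at the ends of that range were chosen after their values were seen. Cdk2, a kinase found at late crossover sites, had 2842 and 2775 bp in Control 1 and Control 2 and 988 and 854 bp in the Snf5 CKO libraries. Tex11, an X-linked gene of the same pathway, had 1028 and 905 bp against 316 and 357 bp, a log2 ratio of −1.52 beside the −1.40 of Cntd1. Mcm9, a gene of DNA repair by recombination, was the 1 gene with longer peaks in the knockout, at 1000 and 977 bp against 1082 and 1026 bp.

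Of the 23 genes, those with length profiles over the 4 libraries most like the median of the crossover genes (1018, 994, 748 and 748 bp) were Mus81, Pms1 and Slx4. Their Euclidean distances on the log2 scale were 0.17, 0.28 and 0.35. Mus81, a nuclease gene of an alternative route to crossovers, had 1077, 973, 798 and 811 bp in the same order of libraries. Likeness over 4 libraries says only that the lengths were near each other.

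The 8 tabulated promoters shared no single sequence motif among those searched. GC content ran from 43.3% at Msh4 to 75.3% at Hfm1, with a median of 55.3% against 56.3% over 17492 promoters. CpG dinucleotides numbered 6 at Msh4 and 12 at Cntd1, up to 41 at Hfm1, with a median of 20 against 13. The stretch tabulated as the Msh4 promoter, the poorest in CpG, was the one with no peak over it in any library. It lies inside the annotated gene, and the Msh4 peak covered the upstream end of that gene in all 4 libraries.

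The motifs were searched on both strands of the 300 bases, and none of the matches named here overlapped another motif. CNCCTCAG, the sequence associated with STRA8, was in the promoters of Msh5 and Hfm1 and in 8.57% of all promoters. CACGTG, the E-box, was in those of Rnf212 and Cntd1 and in 7.91% of all. TTCCCGC, the E2F element, was in those of Msh5 and Rnf212 and in 6.01% of all. TGCGCA, the core of NRF1 sites, was in those of Rnf212b, Ccnb1ip1 and Mlh3 and in 10.1% of all. AACNGTT, a MYB site, was in none of the 8 and in 3.93% of all, and no match says only that these letters are not in this window. In Cntd1 the E-box began 187 bases before the start, in the part that stayed under a peak in all 4 libraries. In Ccnb1ip1 the TGCGCA match began at base 7 of the transcript, in the part that neither Snf5 CKO library covered.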

How the data were processed

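Peak lists of 4 ATAC-seq libraries of sorted female germ cells were analysed. The authors deposited 1 broad peak list for each library. Per the submitters' processing notes the build was mm10, and the tools named, whose roles the notes do not state, are MACS2 2.2.7.1, Bowtie2 2.4.2, Picard 2.25.2, Trim Galore 0.6.5 and SAMtools 1.10. Sources used here do not give thresholds or the handling of duplicates and read ends. In the deposited lists each peak has a score of about 10 times its −log10 q, a fold enrichment (a ratio to local background), a −log10 p and a −log10 q. These are the authors' own values and serve here to rank, describe and filter peaks inside 1 list. No read counts were used, so no depth or counting interval can be given.

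Positions of 21887 protein-coding genes, and starts and promoter sequences of 17492, come from RefSeq (GRCm38.p6, the build of mm10). Where a gene had several tabulated starts, edges were measured from the most upstream one. Peaks were taken at gene ends (1 kb either side), at RefSeq starts and in the gene plus 10 kb, and were tested on simulated data with known positions. Peak length sums each touching peak once. Percentages beside the crossover genes give the same call over all genes. Alternatives covered windows, thresholds, list length, overlap, joined peaks and each library left out. Text names the 9 genes, genes sharing their peaks, and from the other crossover genes those lost, gained or without a peak and the 3 nearest profiles. Cdk2, Tex11 and Mcm9 fall outside this rule and were chosen after their values were seen. The gene set, lists and motifs were chosen with earlier results of these data known. Python 3.11.15, numpy 2.4.6, pandas 2.3.3 and scipy 1.17.1 were used.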

Additional observations from a re-analysis of the deposited data

How the results depend on the processing

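No crossover gene was gained under any alternative, and 7 or 8 were kept. The number lost was 1, Ccnb1ip1, when peaks under a −log10 q of 3 were left out, when lists were trimmed to equal length, and without Snf5 CKO 1. It ran from 0 to 1 when each library was left out, and without Snf5 CKO 2 the gene counted as kept. The number with shorter peaks was 6 or 7. It was 6 of 7 without peaks under a −log10 q of 3 and with trimmed lists, beside 78.4% and 77.9% of all genes kept there. For these counts the share over all genes was not computed with other windows, a larger overlap, window bases or joined peaks. It was also not computed with a library left out, which loosens the rule for every gene. The median log2 ratio of peak length was −0.60. It was −0.50 with windows of 500 bp, without peaks under a −log10 q of 3 or with an overlap of at least 200 bp, −0.43 for window bases under peaks, and −0.67 to −0.55 when each library was left out. That of bases in the gene plus 10 kb ran from −0.81 to −0.56, and the median downstream difference from −308 to −202.8 bp, when each library was left out. Leaving out each library gave log2 ratios of −0.88 to 0.022 at Mlh3, the latter without Control 1. The causes were not tested. Same-numbered libraries compared in pairs, as a replicate block, gave 7 genes with shorter peaks in both pairs and a median of −0.60. This rule is looser than the main one, and the share of all genes that meets it was not computed. Among the 23 other crossover genes it raised the count from 16 to 21. The library numbers are not stated to mark pairs, and deviations from group means correlated at −0.01 over 12030 genes. Unknown depth limits what an absent peak can show, most of all in Snf5 CKO 2, the shortest list.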
